A study of Mus musculus with 12 samples.

Results

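The genes described here are the nuclear Nduf genes, which encode subunits and assembly factors of mitochondrial complex I. Members were the protein-coding autosomal genes of the GENCODE M21 mouse annotation (mm10) whose symbol begins with Nduf. This rule gave 44 of the 20807 autosomal protein-coding genes. By function, 7 encode core subunits, 27 encode accessory subunits, 8 encode assembly factors (Ndufaf1 to Ndufaf8) and the last pair is Ndufa4 and Ndufa4l2. Each locus was the annotated gene with 5 kb on both sides. No measured value entered the choice of members.

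Complex I takes electrons from NADH, passes them along a flavin and a chain of iron-sulphur clusters to ubiquinone, and pumps protons across the inner mitochondrial membrane. Its core subunits are split between the nuclear genome and the mitochondrial genome, whose own subunit genes carry other names and are not among these members. Photoreceptors are among the most energy-demanding cells of the body and pack their inner segments with mitochondria, while the complex I genes themselves are transcribed in nearly every cell type and commonly start within CpG islands.

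The tissue was whole retina of P21 mice (postnatal day 21), labelled C57 BL/6J. The Tet tcKO animals carried floxed alleles of Tet1, Tet2 and Tet3 and the Chx10-Cre-GFP transgene, which deletes in retinal progenitors, is known to be mosaic, and was bred so that breeders and offspring held a pair of Cre copies. The Cre- controls were age-matched animals from Cre- breeders and are given the genotype WT in the labels. For both assays there were triplicate libraries of each genotype, 12 in total. Retinas of a pair of animals were pooled per sample, as the study states. Whole-genome bisulfite sequencing (WGBS) reads 5-methylcytosine (5mC) and 5-hydroxymethylcytosine (5hmC) together, and bACE-seq reads 5hmC alone, because 5mC is deaminated and lost from the signal. The files give differentially methylated regions (DMRs) with 1 mean level per group, so no value below has a replicate error, no test between the groups could be made, and the depth behind each level is unknown. A base outside a DMR is a base not listed, which does not show that its level was equal in both groups. In a bulk tissue, a change in the mix of cell types and a change within cells cannot be told apart, and without RNA in these files the tissue label was not checked against marker genes.

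Few Nduf start sites had a listed WGBS change nearby, and the DNA at these starts was rich in CpGs. Within 500 bp of the start, the members held a median of 56.5 CpGs, against 43 over all protein-coding genes. At or above that overall median, here called a CpG-dense start, lay 39 of the 44 members (88.6%) and 50.1% of all genes. RefSeq promoters (GRCm38.p6, 250 bases before to 50 after the start) were matched for 38 members, 40 promoters in all. Of these promoters, that of Ndufa13 alone touched a WGBS region higher in Tet tcKO, against 9.76% of all protein-coding promoters, and 5 touched a region of lower 5hmC, against 21.1%. Below are the 250 bases before the RefSeq start of 4 members, chosen after their values were seen, written 5′ to 3′ on the strand of the gene. Ndufa13 (chr8:69902021-69902270, minus strand, 16 CpGs) is shown as the exception, with 200 of these bases in a WGBS region higher in Tet tcKO. Ndufv2 (chr17:66101560-66101809, minus strand, 28 CpGs) is shown as the CpG-richest promoter of the set, with no base in any region. Ndufc2 (chr7:97399753-97400002, plus strand, 4 CpGs) is the poorest in CpGs, with 66 bases in a region of lower 5hmC. Ndufs6 (chr13:73328483-73328732, minus strand, no base in any region) is shown for its NRF1 motif. Capitals mark CpGs in the first 3 sequences and the NRF1 motif match, read on the opposite strand, in the fourth.
Ndufa13: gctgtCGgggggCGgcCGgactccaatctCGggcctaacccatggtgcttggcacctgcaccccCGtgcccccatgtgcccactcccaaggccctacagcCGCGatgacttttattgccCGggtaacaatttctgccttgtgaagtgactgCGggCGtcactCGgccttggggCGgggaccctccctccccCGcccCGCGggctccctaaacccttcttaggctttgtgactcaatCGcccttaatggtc
Ndufv2: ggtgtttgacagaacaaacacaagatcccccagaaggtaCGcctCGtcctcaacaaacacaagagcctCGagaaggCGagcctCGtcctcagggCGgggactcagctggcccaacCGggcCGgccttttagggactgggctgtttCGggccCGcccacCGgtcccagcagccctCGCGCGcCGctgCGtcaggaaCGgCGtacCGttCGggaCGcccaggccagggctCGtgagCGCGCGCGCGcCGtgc
Ndufc2: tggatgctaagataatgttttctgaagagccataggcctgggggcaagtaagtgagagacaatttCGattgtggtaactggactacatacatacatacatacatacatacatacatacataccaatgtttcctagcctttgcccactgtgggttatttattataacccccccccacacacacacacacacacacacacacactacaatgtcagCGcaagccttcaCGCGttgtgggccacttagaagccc
Ndufs6: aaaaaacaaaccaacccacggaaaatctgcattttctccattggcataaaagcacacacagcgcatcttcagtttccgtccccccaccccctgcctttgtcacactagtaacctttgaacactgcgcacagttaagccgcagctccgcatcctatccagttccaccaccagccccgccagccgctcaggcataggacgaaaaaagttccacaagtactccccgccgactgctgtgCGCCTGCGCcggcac

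Sequence motifs of factors known to bind respiratory chain promoters were counted on both strands of the same 300-base windows. The NRF1 motif GCGCANGCG was present in 11 of the 40 Nduf promoters (27.5%), compared with 33.3% of the promoters of other respiratory chain and ATP synthase genes and 9.03% of all protein-coding promoters. The YY1 motif AAGATGGCG was present in 6 (15%), compared with 5.56% and 1.91% in the same sets. An ETS motif, CCGGAAGT, was present in 1 Nduf promoter, that of Ndufs3 (2.5%), against 11.1% of the promoters of other respiratory chain genes and 5.45% of all protein-coding promoters. The NRF1 and YY1 motifs share the letters GCG, so their matches may overlap. Matches to 1 motif that overlapped, as when a site reads the same on both strands or lies in both of a pair of promoter windows, were joined into 1 site. None of the 13 NRF1 sites, 6 YY1 sites and 1 ETS site lay in a WGBS or 5hmC region of either direction, where 5.34% of the NRF1 sites, 4.19% of the YY1 sites and 6.06% of the ETS sites of all protein-coding promoters did. With so few sites, the counts of 0 say little about these motifs. Ndufs6, which encodes a zinc-binding accessory subunit, held both an NRF1 and a YY1 match. A match is a stretch of letters and not evidence of binding.

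Within each assay, every region listed at the loci had the same direction, as nearly all regions of the whole lists did. At least 1 WGBS region higher in Tet tcKO was present in 39 of 44 members (88.6%), against 78.5% of all protein-coding genes. The share was 93.7% of genes with a CpG-dense start and 87.5% of other respiratory chain and ATP synthase genes. The 5 members without such a region were Ndufa2, Ndufa3, Ndufa7, Ndufaf1 and Ndufaf7. At least 1 region of lower 5hmC was present in all 44 members, against 89.5% of all genes. It was also present in 99.2% of genes with a CpG-dense start and 100% of other respiratory chain genes. No member had a WGBS region lower in Tet tcKO, which 4.46% of all genes had, and no member had a region of higher 5hmC, which 0.389% of all genes had. With such low shares over all genes, counts of 0 among 44 say little about the members. The loci held 160 WGBS regions, median length 376 bp with 8 CpGs, and 525 5hmC regions, median length 625 bp with 10 CpGs. No region was counted at more than 1 member.

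**Figure D1:**
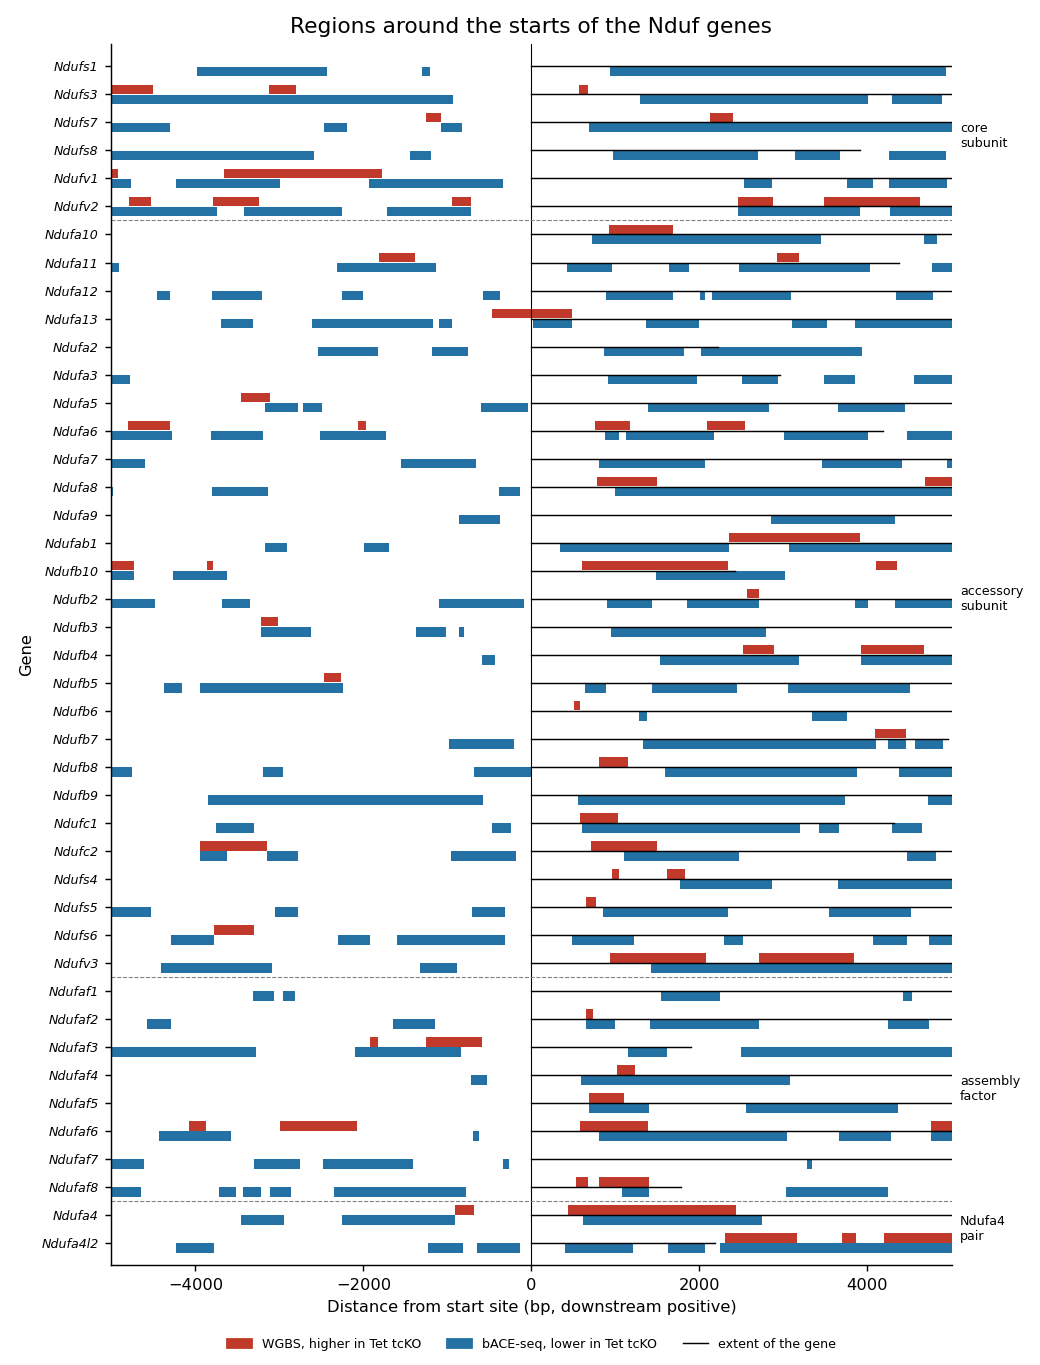
Regions within 5 kb of the start of 43 Nduf genes, ordered by role; the horizontal axis is the distance from the start in bp, red bars are WGBS regions higher in Tet tcKO, blue bars are bACE-seq regions lower in Tet tcKO, and black lines are the annotated genes. Few red bars lie close to the start, with one across the GENCODE start at Ndufa13, while blue bars lie within 500 bp of the start at many genes.

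By position, WGBS regions were rarely listed at the start and were listed most often downstream of it. A WGBS region covered the start base itself in 1 member (2.27%), against 5.00% of all genes and 2.40% of genes with a CpG-dense start. A 5hmC region covered it in 1 member (2.27%), against 12.5% of all genes and 2.89% of genes with a CpG-dense start. Within 500 bp of the start, 2 of 44 members had a WGBS region (4.55%), against 17.5% of all genes and 17.2% of genes with a CpG-dense start. That count was 5 of 44 when every annotated transcript start was used (all genes 4652 of 20807). With X-linked genes added it was 4 of 46 (all genes 3813 of 21755). The other respiratory chain and ATP synthase genes stood close by, with 3 of 48 (6.25%). Among 10 genes of rod phototransduction (Gnat1 and Pde6a among them), 9 of 10 had one, though only 2 of these 10 had a CpG-dense start. Over the wider promoter, 2 kb on each side of the start, 25 members had a WGBS region (56.8%), against 48.6% of all genes and 62.9% of those with a CpG-dense start.

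The highest shares lay about 1 kb into the gene. From 250 bp before to 250 bp after the start, 2.27% of Nduf bases were in a WGBS region. In the bins from 750 to 1000 bp and from 1000 to 1250 bp downstream, the share was 23.2% and 24.7%. The other respiratory chain and ATP synthase genes were close in those bins, at 18.9% and 22.2%. Genes with a CpG-dense start reached 12.7% and 16.7% there, and all genes 9.44% and 11.4%. Past that peak the Nduf share fell to 7.50% at 1750 to 2000 bp, where genes with a CpG-dense start were at 17.2%. CpG density in the members dropped over the same stretch, from 8.06 per 100 bp just downstream of the start to 1.16 at 1000 to 1250 bp. Counted by gene over the stretch from 500 to 2000 bp downstream, a window set after this profile had been seen, 18 of 44 members had a WGBS region (40.9%), against 32.7% of all genes and 45.2% of genes with a CpG-dense start. Over that stretch Ndufa4 (100%), Ndufb10 (93.3%) and Ndufv3 (71.3%) were covered most. In the 500 bp of the 2 highest bins, picked as the peak of the members themselves, 15 members had a WGBS region. That count was not made for other genes, so it shows no excess in the members.

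Lower 5hmC was also listed over few bases at the start, and its share was still high at 2 kb, where that of WGBS had fallen. Of Nduf bases, 4.42% lay in a 5hmC region in the first 250 bp of the gene, 52.4% at 1000 to 1250 bp and 70.8% at 1750 to 2000 bp. In that last bin all genes stood at 36.3%, genes with a CpG-dense start at 49.8% and other respiratory chain genes at 66.6%. From 500 to 2000 bp downstream, 39 of 44 members had a 5hmC region (88.6%), against 65.0% of all genes, 78.0% of genes with a CpG-dense start and 91.7% of the other respiratory chain genes. Within 500 bp of the start, 19 members had one (43.2%, all genes 40.5%), 15 of them accessory subunit genes. Over the wider promoter all 44 had one, against 79.9% of all genes, 93.9% with a CpG-dense start and 97.9% of other respiratory chain genes. The median distance from the start to the nearest 5hmC region was 623 bp, with a range of 0 to 1763 bp, and to the nearest WGBS region 1050 bp, with a range of 0 to 25391 bp. These comparisons with all genes are descriptions, and none of them was tested.

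**Figure D2:**
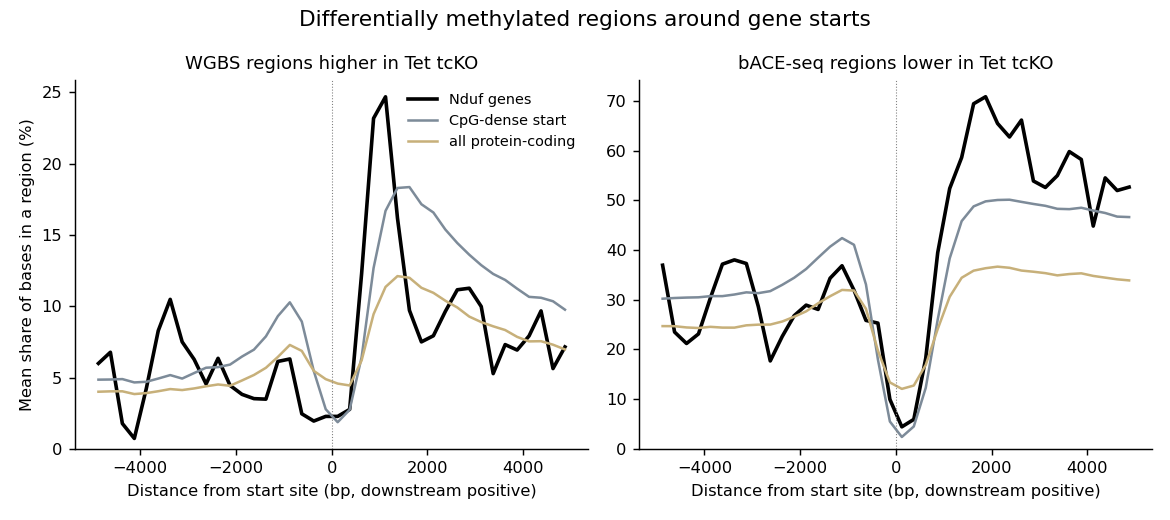
Mean share of bases in a region in bins of 250 bp within 5 kb of the start, for WGBS regions higher in Tet tcKO (left, %) and bACE-seq regions lower in Tet tcKO (right, %); black is the 44 Nduf genes, grey the 10421 genes with a CpG-dense start and tan all 20807 genes. The Nduf line peaks at 24.7% on the left and 70.8% on the right, and stands at 2.27% and 4.42% in the first 250 bp of the gene.

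Both WGBS regions within 500 bp of a start are given here. The Ndufa13 region (chr8:69902071-69903022, 952 bp, 95 CpGs) ran from 464 bp before to 487 bp after the GENCODE start, and its WGBS level rose from 6.89% in Cre- to 11.5% in Tet tcKO. It also covered the starts of the neighbouring genes Yjefn3 and Tssk6, so it is not a feature of Ndufa13 alone. Ndufa13, also called GRIM-19, is an accessory subunit with a membrane-spanning helix, and RefSeq and GENCODE place its start at different bases. The region covered the GENCODE start but ended upstream of the RefSeq start, so counting its start base as covered depends on the annotation. The region of Ndufa4 (chr6:11905068-11907063, 24 CpGs) began 434 bp into the gene and ended at 2429 bp, over a coding exon and intron, and its WGBS level rose from 40.2% to 65.3%. A 5hmC region from 617 to 2740 bp of Ndufa4 fell from 31.5% in Cre- to 7.11% in Tet tcKO.

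The core subunits hold the flavin, the iron-sulphur clusters and the quinone site. Their loci had a median of 11.0% of bases in WGBS regions and 54.8% in 5hmC regions, against 6.13% and 39.8% over all 44 members. In the gene outside the promoter, the WGBS medians were 1.02% in core genes and 3.21% over members, while the means were 8.25% and 7.51%. For 5hmC these medians were 65.8% and 45.7%. Of the core genes, all 7 had a WGBS region in the locus, against 78.5% of all genes and 93.7% of those with a CpG-dense start. None had one within 500 bp of the start, against 17.5% and 17.2%. Among 7 genes, these counts say little about core subunits. Their WGBS regions, weighted by CpGs, went from 38.0% in Cre- to 56.2% in Tet tcKO, a difference of 18.3 percentage points. The difference was 13.4 points in accessory subunits and 15.7 points in assembly factors.

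Ndufv2, an iron-sulphur subunit of the NADH-binding arm, had 20.2% of its locus in 10 WGBS regions, at 43.2% in Cre- and 72.3% in Tet tcKO. Its largest region (chr17:66072648-66075638, 32 CpGs, 38.2% and 75.7%) lay in an intron of the neighbouring gene Ankrd12. Within Ndufv2 itself, an intronic region 3488 to 4624 bp from the start (11 CpGs) stood at 37.5% in Cre- and 76.0% in Tet tcKO. Ndufs3, a subunit of the quinone-reducing module, had the highest 5hmC share of all members, 73.8% of the locus, at 17.7% in Cre- and 4.33% in Tet tcKO. Its WGBS change was small by level: the region with the most CpGs (chr2:90888602-90890914, 161 CpGs) went from 8.79% to 14.3% and lay over C1qtnf4, a neighbour. Ndufs1, which carries iron-sulphur clusters of the electron input arm, was the core gene with the lowest shares, 0.907% in WGBS regions and 33.6% in 5hmC regions. Ndufv1, the flavin-binding subunit, had none of its 12.7% WGBS share inside the gene, since both regions were upstream, rising from 45.3% to 70.6% and from 39.0% to 63.9%.

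The 27 accessory subunits, which surround the core, had a median of 5.42% of bases in WGBS regions and 39.7% in 5hmC regions. Ndufb10, of the membrane arm, had the highest WGBS share, 18.9%, and a low 5hmC share, 21.9%. One region over its coding exons and introns, 600 to 2340 bp from the start (28 CpGs), covered most of this small gene and stood at 27.0% in Cre- and 38.0% in Tet tcKO. Ndufv3, of the NADH-binding arm, had 15.5% in WGBS regions and 73.0% in 5hmC regions. A single 5hmC region of 8840 bp and 164 CpGs ran through most of Ndufv3, at 27.2% in Cre- and 6.42% in Tet tcKO. Ndufb9 was close to it in 5hmC, with 72.9% of the locus, yet all 3 of its WGBS regions were downstream of the gene. Ndufb6 had the lowest accessory 5hmC share, 18.5%. No WGBS region was listed at Ndufa2, Ndufa3 and Ndufa7, whose 5hmC shares were 39.9%, 27.3% and 35.8%.

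The 8 assembly factors, which build the complex and are not part of the finished enzyme, had the lowest locus medians, 4.88% in WGBS regions and 30.1% in 5hmC regions. Over the promoter, their median WGBS share was higher, 7.70%, against 4.57% in core subunits and 0 in accessory subunits. Among the assembly factors, Ndufaf6 had the highest WGBS share of the locus, 11.3%. Ndufaf3, a partner of Ndufaf4 in building the quinone module, had the highest 5hmC share, 61.5%. Ndufaf1, of the membrane-arm assembly intermediate, had no WGBS region and the lowest 5hmC share of all 44 members, 8.61%, in 5 short regions. Ndufaf7, a protein methyltransferase, had no WGBS region and 26.3% of its locus in 5hmC regions. The 10 other genes for complex I assembly, which do not carry the Nduf name, had medians of 1.08% and 26.9%.

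Ndufa4, once counted with complex I and now assigned to cytochrome c oxidase, had 13.0% of its locus in WGBS regions. Ndufa4l2, its paralogue known for induction by hypoxia, had the highest WGBS share of all members, 25.02%. None of these bases was in Ndufa4l2 itself: all 3049 lay in Shmt2, the neighbouring gene. Only 14 CpGs were within 500 bp of the Ndufa4l2 start, where Ndufa4 had 62.

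**Figure D3:**
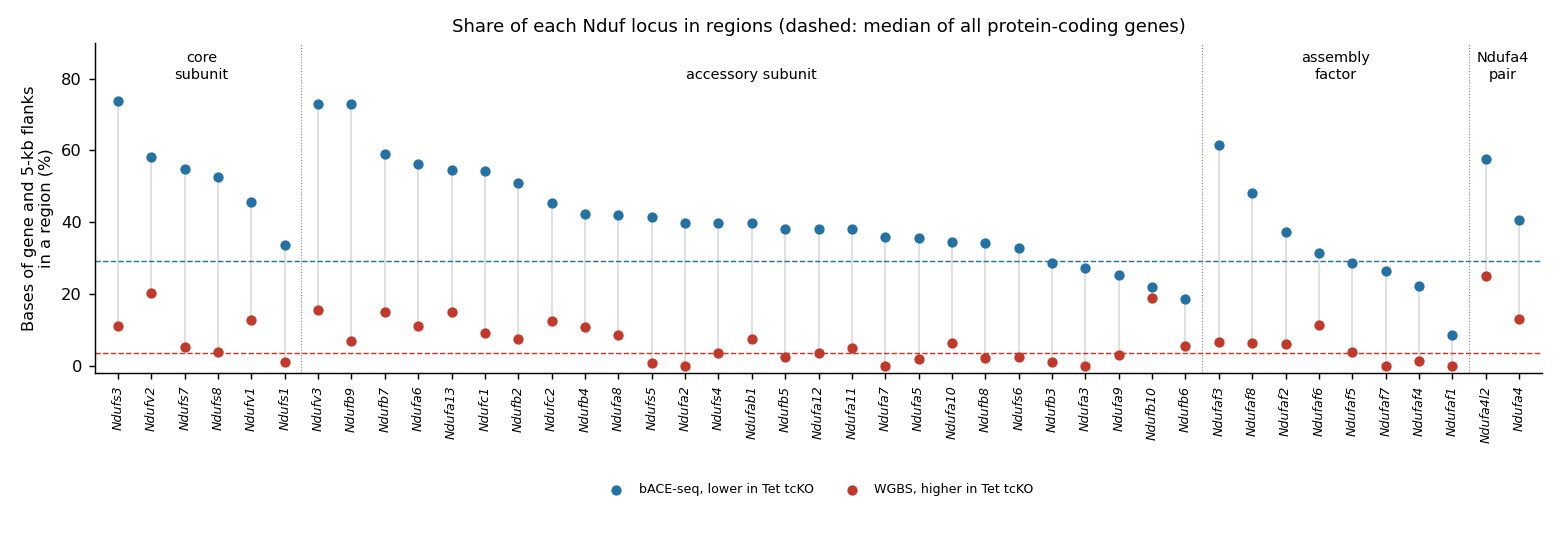
Share of bases (%) of 43 Nduf loci, gene and 5-kb flanks, in bACE-seq regions lower in Tet tcKO (blue) and WGBS regions higher in Tet tcKO (red), by role and in falling order of the blue value; dashed lines are the medians of all 20807 genes, 29.2% (blue) and 3.62% (red). Blue lies above red at every gene, and values run from 8.61% to 73.8% for blue and from 0 to 25.02% for red.

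Part of this signal lay in neighbouring genes. Nduf genes are short (median 8542 bp, all genes 17629 bp), and another protein-coding gene overlapped 37 of the 44 loci. The median share of a locus in another protein-coding gene was 24.1%. These overlaps were not counted over all genes. A second protein-coding start lay within 1000 bp of the Nduf start in 19 members (43.2%, all genes 12.9%), and 18 of the 19 ran in the opposite direction. Of the 77996 bases in WGBS regions, 60.8% were in the Nduf gene itself, which made up 62.1% of the locus bases, and 25.02% were in another protein-coding gene. Along the members, the shares in WGBS and in 5hmC regions rose together (Pearson's r = 0.53 and Spearman's rho = 0.62 across 44 genes). The genes are not independent replicates, and both shares were taken over the same bases and CpGs.

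Levels were taken over WGBS regions higher and 5hmC regions lower in Tet tcKO, so their opposite directions were set by that choice. Over the WGBS regions, weighted by CpGs, the members went from 50.2% in Cre- to 65.2%, 15.1 points higher in Tet tcKO, against 17.1 points over all genes. Regions within 2 kb of the start were lower in both groups, 27.2% and 40.0%, than those in the rest of the gene, 62.1% and 80.5%. Single regions rose by a median of 14.1 points, against 15.4 over the whole list. For 5hmC, the members stood at 17.5% in Cre- and 4.31% in Tet tcKO, so 24.6% of the level was kept, against 24.4% over all genes. The share kept was 18.3% at Ndufaf8, the lowest member, and 29.4% at Ndufb2. The 5hmC levels in Cre- and Tet tcKO were 16.8% and 4.14% in the promoter and 18.4% and 4.53% in the rest of the gene.

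Of the 160 WGBS regions, 147 (91.9%) overlapped a region of lower 5hmC, and 73.5% of their bases did, against 69.4% over all genes. On the 1428 CpGs under both kinds of region, the WGBS level went from 55.3% in Cre- to 70.8% in Tet tcKO, 15.5 points higher, and the 5hmC level from 19.7% to 5.08%. The WGBS level less the 5hmC level, an arithmetic estimate of 5mC, went from 35.6% in Cre- to 65.7%. These CpGs were taken by the direction of both listings, which sets the direction of these changes. Of all 15663 CpGs in the loci, 11.5% were in a WGBS region and 48.2% in a 5hmC region.

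**Figure D4:**
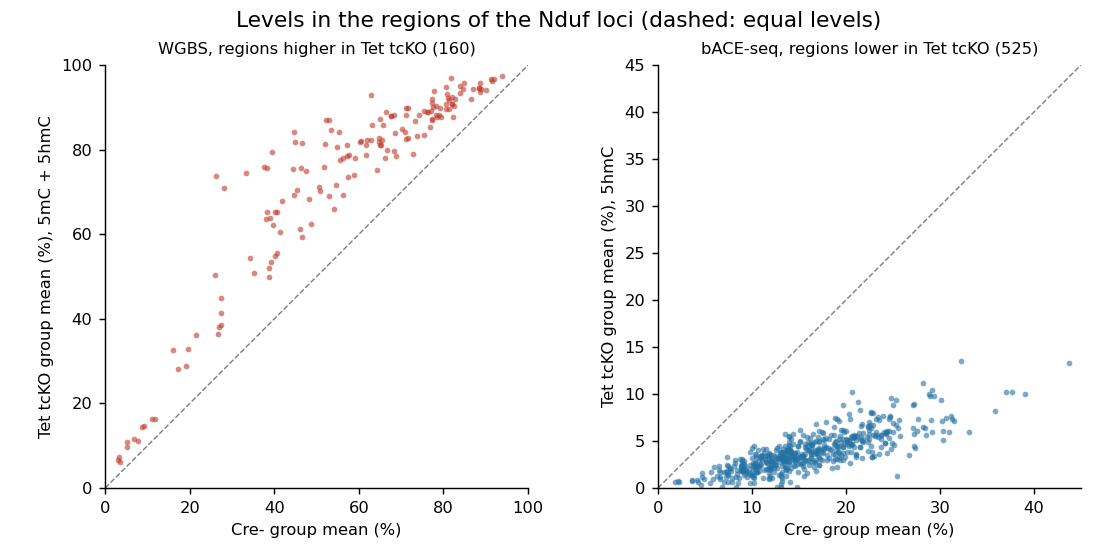
Group mean in Cre- (horizontal, %) and in Tet tcKO (vertical, %) of every region in the Nduf loci, 160 WGBS regions on the left and 525 bACE-seq regions on the right; each point is a region and the dashed line marks equal levels. All red points lie above the line and all blue points below it, as the direction of listing sets.

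Set beside other genes, the Nduf loci were close to those of the rest of the respiratory chain. Medians were 6.13% of bases in WGBS regions and 39.8% in 5hmC regions for the 44 members, 5.90% and 42.9% for the 48 other respiratory chain and ATP synthase genes, and 5.29% and 38.0% for the genes with a CpG-dense start. All genes stood lower, at 3.62% and 29.2%. Of the 44 members, 28 were above the median of all genes for WGBS and 35 for 5hmC, and 16 were above the upper quartile for each. The rod phototransduction genes stood apart at 44.0% and 62.7%. Their WGBS regions went from 50.6% to 76.2%, a difference of 25.6 points, and covered the start base in 8 of 10 genes, where 1 of 44 Nduf genes was covered. The 2 sets also differed in start type and length. The rod genes had a median of 13.5 CpGs within 500 bp of the start (Nduf 56.5), and 2 of 10 had a CpG-dense start (Nduf 39 of 44). Their median length was 41029.5 bp (Nduf 8542 bp). The control retina is made mostly of rods, whereas the paper reports that Tet tcKO retinas gained cones at the expense of rods. Cell composition therefore differed between the groups, and its part in these values was not tested.

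**Figure D5:**
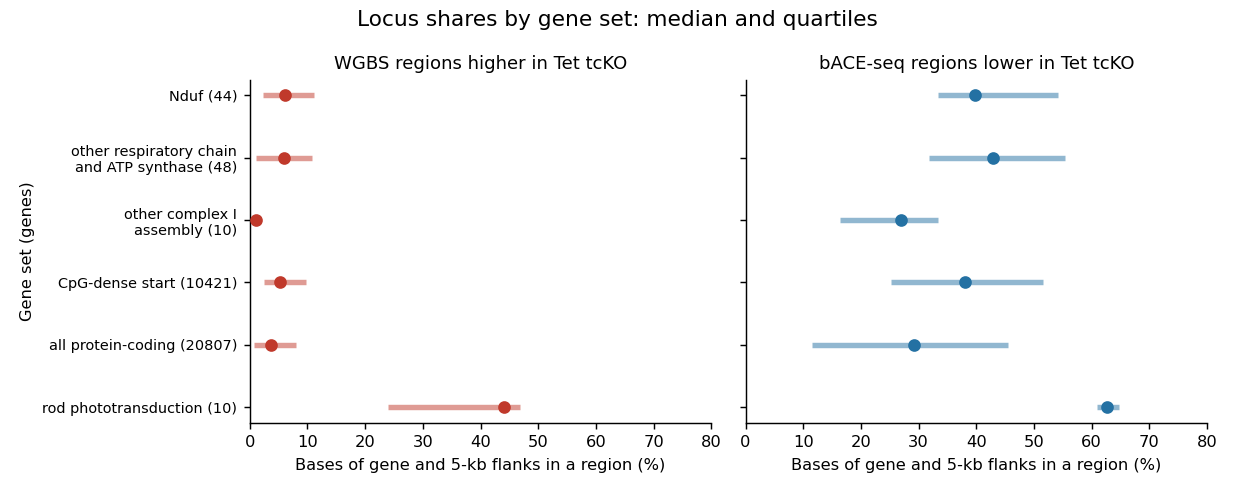
Share of bases (%) of gene and 5-kb flanks in WGBS regions higher in Tet tcKO (left) and bACE-seq regions lower in Tet tcKO (right), by gene set with the number of genes; points are medians over genes and thick lines run from the lower to the upper quartile. The Nduf point lies at 6.13% and 39.8% beside other respiratory chain genes at 5.90% and 42.9%, and the rod genes lie at 44.0% and 62.7%.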

How the data were processed

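Genomic DNA of whole retina at P21 was profiled by WGBS and bACE-seq in triplicate for each genotype, 12 libraries grouped by the sample titles. Per the study's methods and the submitters' processing notes, the authors trimmed reads with Trim Galore 0.4.4, aligned them to mm10 with Bismark 0.18.2, filtered with SAMtools 1.15.1 and Picard, extracted CpG levels with MethylDackel 0.6.1 and called DMRs over the replicates with DSS, with smoothing. The 2 deposited lists give for each region its position, its number of CpGs and the authors' mean level of each group as a fraction from 0 to 1, printed here as a percentage. Columns of the authors' own difference and area statistic were not used. The lists held 193836 WGBS and 592906 bACE-seq regions, with at least 4 CpGs and 51 bp, and every region began and ended on a CpG of GRCm38.

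Direction was Tet tcKO minus Cre-. Of the WGBS regions, 191164 were higher and 2672 lower in Tet tcKO, and of the bACE-seq regions, 592697 were lower and 209 higher. Regions were overlapped with GENCODE M21 genes (at least 1 bp) over the locus (5 kb of flank), the promoter (2 kb on each side of the start), the start (500 bp on each side) and the rest of the gene. Levels were weighted by the CpGs of GRCm38 in the overlap. A CpG-dense start held at least 43 CpGs in 1001 bp. The X-linked Ndufa1 and Ndufb11 were left out by the rule. Promoter sequences came from RefSeq. The overlap code was tested on simulated data (Python 3.11.15, numpy 2.4.6, pandas 2.3.3).

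With group means alone, replicate spread and depth were not analysed here, no test was run, and smoothing makes region edges less exact than levels. The named genes were the 5 highest and the lowest members by WGBS share, the 3 highest and 3 lowest by 5hmC share, the extremes of each role, every member with a WGBS region within 500 bp of its start, and the 3 WGBS regions with the largest product of CpGs and difference. A gene that this rule names is not reported here, nor drawn by name, though it stays in the counts and medians. Others were named once their values were known. The members, lists and rules were chosen with earlier results of these data known. Alternatives were no flank or 10 kb, regions with at least 10 CpGs or a difference of at least 0.1 or 0.2, overlaps of 200 bp, bases outside other genes, shares weighted by CpGs, a 1 kb promoter, all transcript starts, subunits only, and X-linked members included.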

Additional observations from a re-analysis of the deposited data

How the results depend on the processing

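Of 92 values over 12 alternatives, 75 were within 1.5 times the reported value. Differences in level could not change sign, because regions were taken by their direction. No paired analysis was possible because the lists hold group means with no replicate numbers, and for the same reason leaving out each library could not be run. With regions that differed by at least 0.2, WGBS regions higher in Tet tcKO were at 24 members, 8 in the promoter, and lower 5hmC was at 21 members. Of all 20807 genes, 10356, 2940 and 8032 had such regions. The median locus share was then 0.674% for WGBS and 0 for 5hmC (0 for both over all genes), the share of WGBS bases on lower 5hmC 29.2%, and the WGBS rise 27.5 points. The 5hmC level of the members averaged 17.5% in Cre-, so few regions could reach such a difference. With at least 10 CpGs, the median WGBS share was 3.42% (all genes 1.33%) and 14 members had a promoter region (all genes 5724 of 20807). Within 500 bp of the start, 2 members had a WGBS region, against 5 with all transcript starts and 4 of 46 with X-linked members. The count was 1 with a difference of at least 0.1 or 0.2, an overlap of 200 bp, bases outside other genes or subunits only. Over all 20807 genes, where 3644 had one, all transcript starts gave 4652. Differences of at least 0.1 and 0.2 gave 2348 and 579, the overlap of 200 bp 1780, and bases outside other genes 3109. With X-linked genes added, 3813 of 21755 had one. With 10 kb of flank, 2 members had a WGBS region lower in Tet tcKO, where 0 had one with 5 kb. Of all 20807 genes, 1116 had one with 10 kb and 927 with 5 kb. The share of 5hmC kept ran from 22.4% to 24.9% over its alternatives. Depth is unknown, so a small difference at a member may be missing from the lists.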
